A study of Mus musculus with 6 samples.

Results

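Anticoagulant and plasminogen-system genes were examined in mouse mammary carcinoma cells sorted by uptake of acetylated low-density lipoprotein (acLDL). The set held 9 genes, Serpine2, Slpi, Tfpi, Tfpi2, Pros1, F3, Plau, Plaur and Plat, chosen by gene symbol. All 9 were among 15973 protein-coding genes in the authors' comparison, and 8 of them, all but Tfpi2, were among the 12572 that passed the filter on low counts.

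Blood clots when tissue factor, the product of F3, binds factor VII on a cell surface and starts a cascade that ends in thrombin and fibrin. Tfpi, Pros1 and Serpine2 restrain that cascade, and plasmin, made from plasminogen by the proteases of Plau and Plat, dissolves the clot and cuts extracellular matrix. In vasculogenic mimicry (VM), where tumor cells line channels that carry blood, secreted anticoagulants such as SERPINE2 and SLPI are known as factors that keep such channels open.

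The 4T1-T line is a clonal VM-proficient derivative of the 4T1 mammary carcinoma line. After serum starvation, the cells took up Alexa-488 labelled acLDL at 10 ug/mL for 4 h and were kept for 1 h in complete growth medium. Flow sorting then gave acLDL-high cells (top 25% of fluorescence) and acLDL-low cells (bottom 25%), with no genetic change or drug in either, and mRNA of both was sequenced on 3 separate occasions, numbered as replicates 1 to 3. The comparison asks whether uptake of acLDL, an endothelial-like property, goes with expression of these genes. Since all cells came from 1 clone, the 3 replicates sample culture occasions and not independent tumors.

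The library totals lay between 70263372 and 94216786 counts. Levels are given as CPM, counts scaled to library size after TMM scaling, and a count of 3 equals between 0.0323 and 0.0428 CPM, a floor for counting error only. Counts from 1 to 20 were even in 78.0% of 14151 cases, against 50.2% of counts over 1000, so low counts cannot be read as numbers of independent fragments. Of 8 epithelial markers 7 were tested, with a summed level of 3306 to 5434 CPM (acLDL-high) and 3004 to 5158 CPM (acLDL-low), while Krt5 had 0 counts. The test was edgeR's quasi-likelihood test, blocked by replicate number, and a gene was called at an adjusted p (Benjamini-Hochberg over all genes tested) under 0.05.

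Of the 8 members tested, 4 rose in acLDL-high cells, Slpi, F3, Plau and Plat, and 0 fell by edgeR or DESeq2 (0 also at an unadjusted p under 0.05, which 7 members passed upward and 2435 genes passed in either direction). Across all 12572 genes tested, 4.75% were called, 3.43% higher and 1.32% lower. The median log2 fold change was 0.29 over the 8 members, against 0.0017 over all genes tested. The members were chosen with earlier results of these data known, so these contrasts are not an independent test of the set. All 3 pairs were higher in acLDL-high cells for 5 members, Slpi, F3, Plau, Plat and Pros1, where 20.9% of all genes tested were higher in all 3 pairs. In sorted populations, fewer cells that express a gene and less RNA per cell cannot be told apart. Without the replicate block, 0 members were called by edgeR or DESeq2, and the log2 fold changes of Slpi, F3, Plau and Plat from edgeR were 0.68, 0.50, 0.34 and 0.31.

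**Figure D1:**
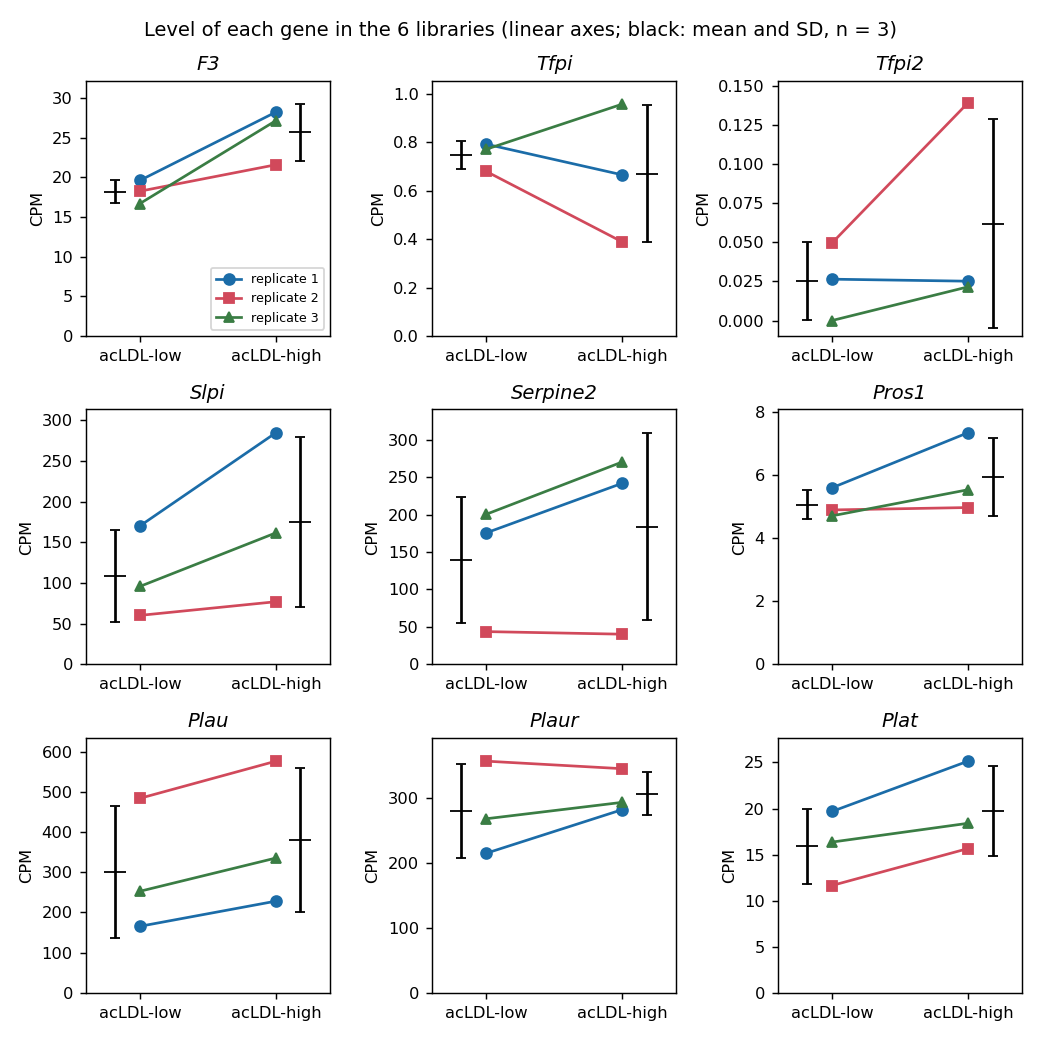
CPM of the 9 genes on linear axes in acLDL-low and acLDL-high cells, with lines that join the libraries of a replicate and black bars for the mean and SD (n = 3). The 3 lines of Slpi, F3, Plau, Plat and Pros1 all slope upward, the replicate 2 lines of Serpine2 and Plaur slope downward, and F3 is the member whose populations do not overlap.

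Promoter windows from RefSeq (GRCm38.p6, the assembly of the files' mm10), from 250 bases before to 50 after each start, were held for 7 of the 9 members, with Plau and Plat the unmatched ones. The windows were searched on both strands for the forkhead motif GTAAACA, for a fixed pattern of the NF-kB motif and for the core ACGTG of hypoxia-inducible factors. They were also searched for the AP-1 motif TGACTCA, which on the opposite strand reads TGAGTCA and is therefore the same set of matches, and for the TATA box, TATAAA. AP-1 letters were found in F3, which rose, and in Plaur, which was not called, where 5.20% of 32851 windows hold them. ACGTG was found in Slpi, Tfpi and a window of Tfpi2, where 19.6% of all windows hold it, and TATAAA, on the opposite strand, in Tfpi and, after the start, in F3 (13.6% of all windows). GTAAACA and the NF-kB pattern searched, in 3.65% and 1.63% of all windows, had no match in the members' windows. Sites that depart from the patterns searched were not looked for, in F3 or in any other window. The lack of a match therefore does not show that a window has no NF-kB or forkhead site. The 150 bases before the start of Slpi, the member with the largest log2 fold change (chr2:164356508-164356657, minus strand), of F3, the member whose populations separated (chr3:121723387-121723536, plus strand), and of Plaur, which shares the AP-1 letters with F3 (chr7:24462333-24462482, plus strand), are given 5′ to 3′, with the matched letters in capitals:
Slpi: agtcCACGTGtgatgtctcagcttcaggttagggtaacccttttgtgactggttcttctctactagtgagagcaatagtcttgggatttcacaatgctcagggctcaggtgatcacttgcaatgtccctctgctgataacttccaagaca
F3: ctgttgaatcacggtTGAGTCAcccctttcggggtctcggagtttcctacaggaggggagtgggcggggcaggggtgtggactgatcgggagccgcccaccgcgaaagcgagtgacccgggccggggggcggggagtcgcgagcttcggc
Plaur: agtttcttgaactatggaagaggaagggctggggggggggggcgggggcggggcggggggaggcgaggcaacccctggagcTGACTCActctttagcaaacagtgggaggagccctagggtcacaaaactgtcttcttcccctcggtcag
In F3 the capitals are TGAGTCA, which begins 135 bases before the start, in Plaur TGACTCA, 69 bases before it, and in Slpi the palindrome CACGTG, 146 bases before it, which holds ACGTG on both strands. These letters are a description of the windows and not evidence of binding.

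F3 (ENSMUSG00000028128, chromosome 3 from 121723537 to 121735048 of GRCm38, 7 exon blocks) encodes tissue factor, the membrane protein that starts coagulation. Its window, shown before, holds the AP-1 letters. In acLDL-low cells it was at 19.6, 18.3 and 16.7 CPM in replicates 1, 2 and 3, and in acLDL-high cells at 28.3, 21.6 and 27.2 CPM. Every acLDL-high library was above every acLDL-low library. The populations separated in 2.86% of all genes tested, upward in 1.23%, and F3 was the only tested member that did so. F3 rose from 18.2 ± 1.46 to 25.7 ± 3.57 CPM (SD, n = 3). The log2 fold change was 0.49 (standard error, SE, 0.08, edgeR adjusted p = 0.00298), with 0.53, 0.24 and 0.70 in pairs 1, 2 and 3. Without replicate 3 it was 0.39, and the call was lost (edgeR adjusted p = 0.0750). F3 had the narrowest spread between occasions among the members tested. Its replicate means lay between 19.9 and 23.9 CPM, and they did not pass the test between replicates (edgeR adjusted p = 0.0771).

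Tfpi (ENSMUSG00000027082, chromosome 2 from 84432855 to 84476775) encodes tissue factor pathway inhibitor, the Kunitz-type inhibitor of factor X and of the tissue factor complex. It was weakly expressed, with 60, 55 and 54 counts in acLDL-low and 53, 28 and 89 counts in acLDL-high cells in replicates 1, 2 and 3. The populations overlapped and the pairs differed in direction, with -0.24, -0.77 and 0.30 on the log2 scale. The log2 fold change was -0.19 with a 95% interval from -0.74 to 0.37 (edgeR adjusted p = 0.751), an interval that leaves out neither a fall nor a rise. Without replicate 2 the value was 0.04 (edgeR adjusted p = 0.967).

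Tfpi2 (ENSMUSG00000029664, chromosome 6 from 3962595 to 3988919) encodes a related Kunitz-type inhibitor of plasmin and other proteases that is deposited in matrix. It had 2, 4 and 0 counts in acLDL-low and 2, 10 and 2 counts in acLDL-high cells, in replicate order. The replicate 2 libraries held most of these counts, and the other libraries were at or under the floor of 3 counts. The gene did not enter the test.

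Slpi (ENSMUSG00000017002, chromosome 2 from 164354070 to 164389095, where exons of Mir7678 overlap on the same strand) encodes a secreted inhibitor of leukocyte elastase and other serine proteases. It was at 170, 60.3 and 95.9 CPM in acLDL-low and at 285, 77.1 and 162 CPM in acLDL-high cells in replicates 1, 2 and 3. Replicate 1 was highest and replicate 2 lowest in both populations, so the groups overlapped although each pair went up. Slpi had the largest log2 fold change among the members tested, with means from 109 ± 56.2 to 175 ± 105 CPM (SD, n = 3). That log2 fold change was 0.62 (SE 0.07, edgeR adjusted p = 0.000205). The pairs gave 0.74, 0.35 and 0.75, and the call held without each replicate in turn. Its replicate means differed by 3.31-fold (edgeR adjusted p = 7.25e-09 between replicates), more than the largest fold within a pair, 1.69.

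Serpine2 (ENSMUSG00000026249, chromosome 1 from 79794197 to 79861180) encodes protease nexin-1, a serpin that inhibits thrombin, urokinase and plasmin. It was at 175, 43.8 and 200 CPM in acLDL-low and at 242, 40.4 and 270 CPM in acLDL-high cells. In replicates 1 and 3 the acLDL-high library was the higher (log2 ratios 0.46 and 0.43), and in replicate 2 the lower (-0.12). The log2 fold change over the 3 pairs was 0.27, with a 95% interval from 0.09 to 0.46 (edgeR adjusted p = 0.0890), so the gene was not called. Without replicate 2, the pair that goes the other way, it was 0.44 (edgeR adjusted p = 7.49e-14), from a fit of 4 libraries that took the spread of a gene wholly from other genes. The gap between occasions was larger than any gap between populations. Replicate means were 208.5, 42.1 and 235 CPM, a 5.58-fold range, the widest of the 8 members tested (edgeR adjusted p = 2.78e-09 between replicates).

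Pros1 (ENSMUSG00000022912, chromosome 16 from 62854307 to 62929346) encodes protein S, the cofactor of activated protein C and of Tfpi and a ligand of Tyro3 family receptors. Its levels were 5.60, 4.90 and 4.71 CPM in acLDL-low and 7.35, 4.98 and 5.54 CPM in acLDL-high cells. Each pair was higher in acLDL-high cells, with replicate 2 nearly level, at 0.02 on the log2 scale. The log2 fold change of 0.22 had a 95% interval from 0.0044 to 0.44 and did not pass over all genes tested (edgeR adjusted p = 0.247).

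Plau (ENSMUSG00000021822, chromosome 14 from 20836660 to 20843385) encodes urokinase, the plasminogen activator that works at cell surfaces. It was at 166, 484 and 253 CPM in acLDL-low and at 228, 576 and 335 CPM in acLDL-high cells in replicates 1, 2 and 3. The order of the occasions was the same in both populations, with replicate 2 highest, and each pair rose. The mean went from 301 ± 164 to 380 ± 178 CPM (SD, n = 3), so that the SD over occasions exceeded the difference of the means, while the paired log2 fold change was 0.37 (SE 0.05, edgeR adjusted p = 0.000832), with 0.46, 0.25 and 0.41 in the pairs. Plau, like Slpi, was called without each replicate in turn.

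Plaur (ENSMUSG00000046223, chromosome 7 from 24462484 to 24475968) encodes the urokinase receptor, which holds urokinase at the membrane. It was at 215, 357 and 268 CPM in acLDL-low and at 282, 345 and 293 CPM in acLDL-high cells. Replicate 1 was higher by 0.39 on the log2 scale, replicate 3 by 0.13, and replicate 2 was lower, at -0.05. The log2 fold change was 0.16, with a 95% interval from 0.02 to 0.30 (edgeR adjusted p = 0.201), and 0.26 without replicate 2 (edgeR adjusted p = 9.70e-05, with the spread again wholly from other genes).

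Plat (ENSMUSG00000031538, chromosome 8 from 22757727 to 22782844) encodes tissue-type plasminogen activator, which activates plasminogen mainly at fibrin. It was at 19.7, 11.7 and 16.4 CPM in acLDL-low and at 25.1, 15.7 and 18.4 CPM in acLDL-high cells. The replicate 2 library of acLDL-high cells lay below 2 of the acLDL-low libraries, and each pair rose, by 0.35, 0.43 and 0.17 on the log2 scale. The log2 fold change was 0.31 (SE 0.07, edgeR adjusted p = 0.0176). Without replicate 3 it was 0.39 and the call was lost (edgeR adjusted p = 0.0589).

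**Figure D2:**
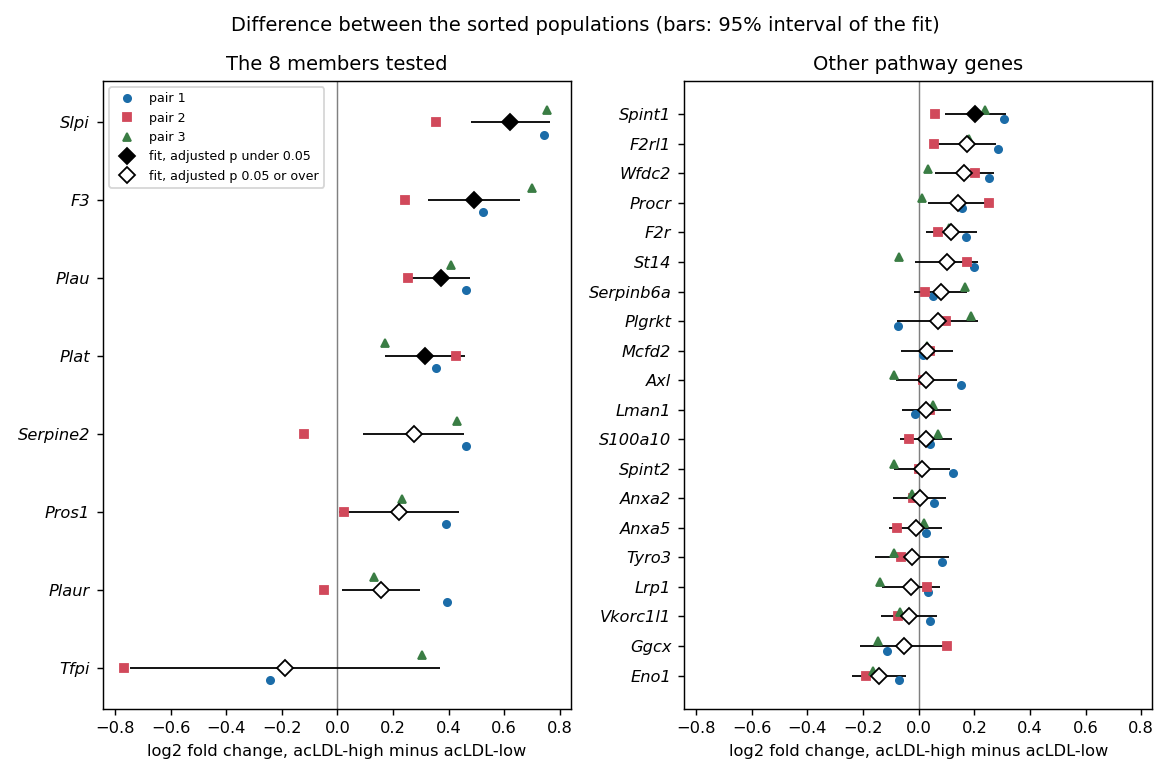
Log2 fold change of acLDL-high over acLDL-low cells (x axis) for the 8 members tested (left) and 20 other pathway genes at 10 CPM or more (right), with diamonds for the fit, bars for its 95% interval and coloured points for the 3 pairs. Slpi, F3, Plau and Plat on the left and Spint1 on the right are filled, the 5 genes shown with an adjusted p under 0.05.

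Levels of different genes were compared per kilobase of annotated exon length (CPM per kb). Over the 6 libraries Plau had the highest mean, 144 CPM per kb, followed by Slpi at 120 and Plaur at 112. These 3 did not keep an order, since Plau was above Slpi in 4 of 6 libraries and Slpi above Plaur in 3 of 6. Serpine2 followed at 19.5 CPM per kb and F3 at 8.68, with Serpine2 the higher in 4 of 6 libraries. The order below F3 was the same in all 6 libraries as far as Tfpi, with Plat at 2.85, Pros1 at 1.35 and Tfpi at 0.130 CPM per kb, and Tfpi2 was last at 0.0250, below Tfpi in 5 of 6. Among the members, RNA per length was thus highest for urokinase, its receptor and Slpi, and lowest for the Kunitz-type inhibitors Tfpi and Tfpi2.

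Members differed in how far the 3 occasions lay apart. Between replicates, 6 of the 8 members tested differed by the same edgeR fit, all but F3 and Tfpi, against 78% of all genes tested, a share near that of all genes. Across all genes tested the median fold between the highest and lowest replicate mean was 1.37 and the median of the largest fold within a pair was 1.13. Serpine2 (5.58-fold), Slpi (3.31-fold) and Plau (2.69-fold) were spread most between replicates, and F3 least, at 1.201-fold. The direction was not shared. Serpine2, Slpi, Plat, Pros1, F3 and Tfpi were lowest in replicate 2, while Plau and Plaur were highest there.

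**Figure D3:**
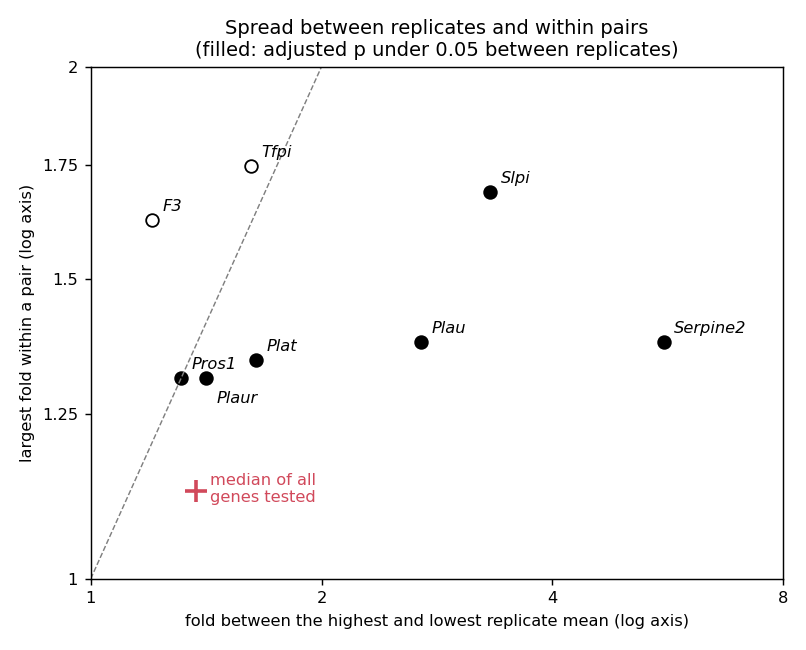
Fold between the highest and lowest replicate mean (x axis, log scale) against the largest fold within a pair (y axis, log scale) for the 8 members tested, filled where the replicates differed at an adjusted p under 0.05. Serpine2, Slpi and Plau lie far to the right of the dashed line of equal folds, F3 and Tfpi lie to its left, and the cross is the median of all 12572 genes tested.

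Ratios within a library do not depend on its scaling. The log2 ratio of Plau to its receptor Plaur (CPM per kb, replicates 1, 2 and 3) was -0.23, 0.58 and 0.06 for acLDL-low and -0.16, 0.88 and 0.34 for acLDL-high libraries. Each pair differed upward, by 0.07, 0.30 and 0.28. The log2 ratio of F3 to Tfpi and Tfpi2 was 5.60, 5.56 and 5.55 for acLDL-low and 6.36, 5.82 and 5.84 for acLDL-high libraries. The populations did not overlap in this last ratio, as they did not for F3 alone. Its denominator rests on the low counts of Tfpi and Tfpi2. In the acLDL-high library of replicate 2, Tfpi2 (0.0796 CPM per kb, from 10 counts) was above Tfpi (0.0713 CPM per kb), so that value depends on Tfpi2.

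**Figure D4:**
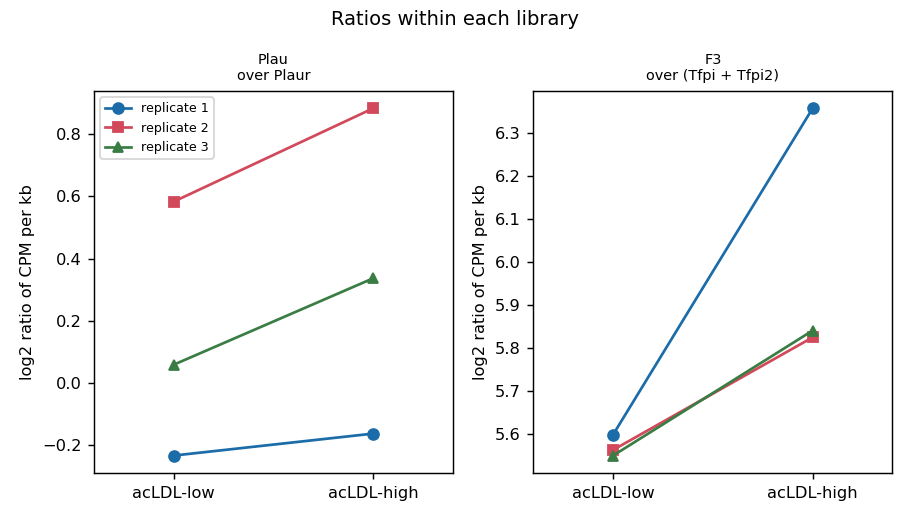
Log2 ratios of CPM per kb within each library for urokinase over its receptor (left) and tissue factor over Tfpi and Tfpi2 (right), with lines that join the libraries of a replicate. In the left panel the replicate 2 line lies highest and all 3 lines slope upward, and in the right panel all acLDL-low values lie near 5.57 and all acLDL-high values above them.

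In the rest of the pathway few genes passed the test. Of 65 such genes in 6 lists, 36 were tested and 2 were called, both higher, which is 5.56% against 4.75% of all genes tested, and their median log2 fold change was 0.028. Spint1, a membrane-bound Kunitz-type inhibitor of hepatocyte growth factor activator, changed by 0.20 on the log2 scale (SE 0.05, edgeR adjusted p = 0.0387), upward in 3 of 3 pairs. Its call was lost without replicate 1 and without replicate 3.

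Of the plasminogen receptors, none was called by edgeR and Eno1 was called by DESeq2. Anxa2, whose exons overlap Gm16144 on the opposite strand, was at 955 (acLDL-high) against 953 CPM (acLDL-low), a log2 fold change of 0.0029 with a 95% interval from -0.09 to 0.10, and its partner S100a10 at 450 against 444 CPM. Plgrkt, another plasminogen receptor, had a log2 fold change of 0.07 (95% interval from -0.08 to 0.21). Eno1, a glycolytic enzyme that also binds plasminogen, was lower in all 3 pairs, with a log2 fold change of -0.14 (95% interval from -0.24 to -0.04). It was not called by edgeR (edgeR adjusted p = 0.103), and DESeq2 with the block called it lower. Plasminogen itself, Plg, had 10 counts over the 6 libraries, and Cpb2, which protects fibrin from plasmin, had 0.

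Of the coagulation factors themselves, 4 of 16 were tested and 0 were called by edgeR or DESeq2 (2 at an unadjusted p under 0.05). F7, F9, F10, Fga, Fgb and Fgg had 0 counts in all 6 libraries, and prothrombin, F2, had 8 counts in all. The genes for carboxylation and export of these factors were expressed, with Lman1 at 113 against 111 CPM and Ggcx, the vitamin K-dependent carboxylase, at 13.3 against 13.9 CPM. Mcfd2, the cargo receptor partner of Lman1, and Vkorc1l1, a vitamin K epoxide reductase, had log2 fold changes of 0.03 and -0.03. None of the 5 carboxylation and export genes was called by edgeR or DESeq2 (0 at an unadjusted p under 0.05).

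Other anticoagulants included Procr, the endothelial protein C receptor, at 86.1 against 76.5 CPM (log2 fold change 0.14, edgeR adjusted p = 0.136), higher in 3 of 3 pairs. Anxa5, which covers the membrane lipid that coagulation needs, was at 723 against 728 CPM, with a 95% interval of its log2 fold change from -0.11 to 0.08. Thbd, which encodes thrombomodulin, had 2 counts over the 6 libraries, and Proz and Serpina10 had 0. Of the 10 genes of this list 4 were tested and 0 called by edgeR or DESeq2 (1 at an unadjusted p under 0.05).

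Receptors for coagulation proteases and for protein S were expressed without a called difference in the main fit or by DESeq2. Of 9 such genes 7 were tested, with 0 called and 2 at an unadjusted p under 0.05. F2r, the thrombin receptor, was at 84.2 against 77.5 CPM, and F2rl1, the receptor cleaved by tissue factor with factor VII, at 91.5 against 81.7 CPM. Their log2 fold changes were 0.12 and 0.17 (edgeR adjusted p = 0.152 and 0.0652), higher in 3 of 3 pairs each. F2rl1 was called by edgeR without the filter on low counts and without replicate 2. Axl was at 861 against 846 CPM and Tyro3 at 18.5 against 18.8 CPM, both receptors of the Tyro3 family. Gas6, another ligand of that family, had 2 counts in all. Lrp1, which takes up complexes of activators with serpins, had a log2 fold change of -0.03 (95% interval from -0.13 to 0.08).

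Among other inhibitors and proteases of this kind, Wfdc2, a relative of Slpi, was at 442 against 392 CPM (log2 fold change 0.16, edgeR adjusted p = 0.0797) and higher in 3 of 3 pairs. It was called by DESeq2 with the block and by edgeR without the filter on low counts. The membrane protease gene St14 and the inhibitors Serpinb6a (with exons of other genes on the opposite strand) and Spint2 had log2 fold changes of 0.10, 0.08 and 0.01, none of them called. Of the proteases that Slpi inhibits, Ctsg had 0 counts and Elane 2 counts over the 6 libraries.

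Over the 6 libraries, the genes whose log2 CPM followed F3 most closely by Pearson r were Hebp2 (0.986) and Ccnyl1 (0.985), among 10537 genes with an average log2 CPM of at least 1. For Slpi they were Nptn and Cdc42ep3, for Serpine2 Smad3 and Abhd13, for Pros1 Nectin1 and Rabgef1, and for Tfpi Tceanc and Bmi1. For Plau they were Snrpn and Smc1a, for Plaur Preb and Hnrnph1, and for Plat Phtf1 and Glipr1. These values describe 6 libraries of 3 occasions, where a high r is common. It exceeded 0.9 for 12.4% of the candidates in the case of Serpine2, for 8.20% in that of Plau and for 0.180% in that of F3.

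Cell cycle genes and markers of other cell types were examined beside these members. Of 15 G2/M genes, 9 were called, all higher, with a median log2 fold change of 0.30 and summed levels of 3184 to 3977 CPM (acLDL-high) and 2587 to 3178 CPM (acLDL-low). The 9 were Top2a, Ccnb1, Cdk1, Plk1, Aurka, Aurkb, Bub1, Cenpf and Kif11, with log2 fold changes from 0.24 (Bub1) to 0.49 (Ccnb1), while Mki67, Ccnb2, Cenpe, Kif20a, Cdc20 and Tpx2 did not pass. Of 12 macrophage markers 5 were tested and 1, Cd14, was called higher by edgeR (9.52 to 11.9 CPM) and 0 by DESeq2 (at an unadjusted p under 0.05, 1 higher and 1, Cd68, lower), with Adgre1, Tyrobp, Cd163 and C1qa at 0 counts and summed levels of 20.2 to 24.5 against 19.3 to 21.8 CPM. Of 10 endothelial markers 4 were tested and 0 called by edgeR or DESeq2. At an unadjusted edgeR p under 0.05, 0 were higher and 1, Esam, was lower in acLDL-high cells (log2 fold change -0.90). Flt4, Emcn and Cldn5 were at 0, and the sum was 1.80 to 2.64 against 1.96 to 3.18 CPM. Of 6 platelet markers 2 were tested and 0 called by edgeR or DESeq2. At the same unadjusted p, 0 were higher and 1, Itga2b, was lower (log2 fold change -0.35). Gp1ba was at 0, and the sum was 2.93 to 5.46 against 3.24 to 7.30 CPM. The part of these groups in the members' differences was not tested.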

How the data were processed

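RNA of 4T1-T cells was sequenced in 3 acLDL-high and 3 acLDL-low libraries. Per the labels and the paper's methods, reads were aligned to mm10 with STAR (version 2.5.2a) and counted per gene with featureCounts (version 1.4.3-p1). The authors deposited raw counts for 53379 gene IDs, without normalization. The annotation release and strand setting were not given in the sources used here. The authors' table of their own DESeq2 comparison served for gene IDs and symbols of 15973 protein-coding genes. Its mean counts, fold changes and p-values were not used.

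Counts were filtered with filterByExpr, scaled by TMM and tested with edgeR (version 4.0.16, R 4.3.3), with the replicate number as a block as in the paper's methods. Differences between replicates were tested by the F test of the block terms. Per the series' design text the numbers stand for separate occasions. Deviations from the population mean correlated at 0.795, 0.846 and 0.799 across genes for libraries of the same number, and at -0.557 to -0.0882 otherwise. Deviations from a mean cancel out within a population, so the negative values follow in part from the positive ones. No library repeated another (chi-square per degree of freedom 21.3 or more). Log2 CPM of single pairs used a prior count of 2, and standard errors were derived as fold change (log2) over the root of F. Positions and exon lengths came from GENCODE M21.

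The named genes are the 9 members, the 65 pathway genes where called or at 10 CPM or more on average, those at 0 counts, and the 2 genes most like each member, except an item that is not reported here. F2, Plg, Thbd, Gas6 and Elane (few counts) and Cd14 as a called marker were named after their values were seen. So were Cd68, Esam, Itga2b, F5, F13a1, Serpinb2 and Serpinf2. The members and lists were chosen with earlier results of these data known. On simulated data for this comparison, with 200 of 12438 genes changed by 1 on the log2 scale, 200 were recovered with 17 false calls with the block. Without it, 61 of 200 among 12291 genes were recovered. The called members changed by less, from 0.31 (Plat) to 0.62 (Slpi), and recovery of changes of that size was not simulated. Alternatives were edgeR without the block, DESeq2 (version 1.42.0, betaPrior) in both designs, its size factors in edgeR, no low-count filter, a minimum of 10 counts per library, the whole gene table, leaving out each pair and, added after seeing the data, counts divided by 2.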

Additional observations from a re-analysis of the deposited data

How the results depend on the processing

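Without the replicate block, the pairing of libraries is ignored and 0 of 12329 genes were called by edgeR (45 at an unadjusted p under 0.05) and 0 by DESeq2 (60 at an unadjusted p under 0.05), so 0 members and 0 pathway genes were called. Leaving out each pair gave 2 to 6 members, 126 to 869 genes in all and 1 to 5 pathway genes, lowest for members and genes without replicate 3 and highest without replicate 2, where the fit took the spread of a gene wholly from other genes. Without a filter on low counts 932 genes in all, 7 pathway genes and 5 members were called, with Serpine2 added at 0.28 (edgeR adjusted p = 0.00445). DESeq2 with the block called 4 pathway genes and the same 4 members, Slpi, F3, Plau and Plat. Those 4 members were also called with DESeq2's size factors, a minimum of 10 counts per library, the whole gene table and counts divided by 2. Of 88 values of members under alternatives, 74 kept direction and call, 10 lost the call, 3 gained it and 1 changed direction (Tfpi, from -0.4964 to 0.0448 over the fits without a pair, the latter without replicate 2). The counts of 6 members and of 9802 genes that differed between replicates stayed within 1.5 times. With 20 counts of Tfpi2 in all, depth limits any statement on it.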

Other observations

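Of the pathway genes that were not called, 3 at low levels had the largest log2 fold changes upward. F5, a coagulation cofactor, was at 0.502, 0 and 1.23 CPM in acLDL-low and 1.08, 0 and 2.08 CPM in acLDL-high cells in replicates 1, 2 and 3, a log2 fold change of 0.90 (SE 0.25, edgeR adjusted p = 0.0706). F13a1, which encodes the transglutaminase subunit that cross-links fibrin and whose exons overlap Gm30489 on the opposite strand, was at 2.66, 0.681 and 3.89 CPM in acLDL-low and 4.14, 0.570 and 6.80 CPM in acLDL-high cells, with 0.58 (SE 0.16, edgeR adjusted p = 0.0600). Serpinb2, a serpin gene whose exons overlap Serpinb10 on the same strand, was at 0.317, 0.891 and 0.143 CPM in acLDL-low and 0.993, 1.502 and 0.172 CPM in acLDL-high cells, with 0.99 (SE 0.29, edgeR adjusted p = 0.0714). All 3 were called without a filter on low counts. The largest change of an uncalled pathway gene was downward, -1.41 for Serpinf2 (SE 0.50, edgeR adjusted p = 0.144), lower in each pair. Serpinf2 had 24, 16 and 10 counts in acLDL-low and 12, 4 and 4 counts in acLDL-high cells. It was not called without the filter. F5 and F13a1 were lowest in replicate 2, as was Serpine2, and Serpinb2 was highest there, as were Plau and Plaur.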
